A study of Mus musculus with 8 samples.

Results

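The genes described here encode enzymes and transporters that use the amino acid arginine: the inducible nitric oxide synthase Nos2, its cofactor enzyme Gch1, the arginases Arg1 and Arg2, the arginine transporters Slc7a1 and Slc7a2, the citrulline-recycling enzymes Ass1 and Asl, and the polyamine enzymes Odc1 and Srm. The members were chosen by gene name, as the probes whose name in the scanner files is one of these 10, out of 27398 gene names on the array. They had 14 distinct probes of 41174. All 14 passed the filter on dim probes, which asks that some group has both of its arrays well above background, and all 10 genes entered the test among 15401 genes.

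RNA was measured on 8 one-colour Agilent arrays with probes of 60 bases, in dendritic cells (DC), the antigen-presenting cells of the immune system, grown from the total bone marrow of male C57BL/6Jax mice. The 4 groups, of 2 arrays each, were miR-155 knockout (KO) DC stimulated with lipopolysaccharide (LPS), wild-type (WT) DC stimulated with LPS, KO unstimulated DC and WT unstimulated DC. All cultures received 40 ng/mL GM-CSF, a growth factor, for 7 days, and LPS, part of the outer membrane of bacteria, was added at 100 ng/mL for 16 h to the stimulated ones. DC were sorted as CD86-positive cells after LPS and as CD86-negative cells without it, so LPS and the sort gate cannot be told apart. The labels used here do not give the age of the mice, how the knockout allele was made, or whether the 2 arrays of a group came from separate animals or cultures, so p-values measure the spread between these arrays, which may be technical. The level of the miR-155 host transcript was not analysed here, so the arrays give no check of the genotype.

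Activated macrophages and DC take up arginine through cationic amino acid transporters, and Nos2 turns it into nitric oxide and citrulline with tetrahydrobiopterin, whose synthesis starts with Gch1, as a cofactor. Ass1 and Asl convert citrulline back to arginine. The arginases compete for the same arginine and make ornithine, which Odc1 and then Srm turn into the polyamines putrescine and spermidine. miR-155 is a microRNA that rises in activated immune cells, and Arg2 is a published miR-155 target in dendritic cells.

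The microRNA and the probes of the genes on which the results turn are shown so that a reader can see what was deleted and what was measured. The mature miR-155 strand lies on mouse chromosome 16, chr16:84714143-84714165 on the plus strand of GRCm38.p6, and its sequence is that of RefSeq. Capitals mark its seed, bases 2 to 8, which pairs with target transcripts.
mmu-miR-155-5p: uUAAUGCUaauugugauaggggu
The probes are given in transcript direction, with their mm9 positions as the scanner files state them. Each maps to the genome as 1 unbroken stretch, so it lies within an exon.
Nos2, chr11:78773160-78773219, plus strand: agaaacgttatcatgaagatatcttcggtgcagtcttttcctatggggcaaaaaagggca
Gch1, chr14:47788897-47788956, minus strand: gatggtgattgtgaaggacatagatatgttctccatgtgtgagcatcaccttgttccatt
Arg1, chr10:24636194-24636253, minus strand: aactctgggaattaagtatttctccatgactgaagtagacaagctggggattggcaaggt
Arg2, chr12:80252972-80253031, plus strand: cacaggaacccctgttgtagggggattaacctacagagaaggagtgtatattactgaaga
The longest run of bases shared by probes of different genes of this family, the related transporter Slc7a3 included, was between 4 and 9 bases in each pair, so none of these probes repeats another gene's probe. The probe of Slc7a2 lies at chr8:42002869-42002928, that of Srm at chr4:147968433-147968492, and those that stand for Slc7a1 and Odc1 at chr5:149138970-149139003, where the files place 34 of its 60 bases, and chr12:17557755-17557813. The probes of Asl, chr5:130487964-130488549, and Ass1, chr2:31374279-31375918, span 586 and 1640 bases of genome and cross an intron.

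A level is given as the scaled log2 signal, the log2 processed signal of a probe minus the 75th percentile of its array, so 0 is the level of that percentile and a level is comparable between arrays for 1 probe but not between probes. The share of spots well above background was 50.8% to 58.3%, with none saturated. LPS and unstimulated arrays separated on principal component 1, with 74.8% of the variance, and arrays numbered 1 and 2 on principal component 2, with 9.81%. All 10 DC markers examined were well above background on all 8 arrays, and Cd86, the sort marker, was higher after LPS by 3.88 ± 0.55 log2 units in KO and 3.85 ± 0.55 in WT (± standard error, SE, from limma). Of 10 macrophage markers, 5 fell and 1 rose after LPS in each genotype, with Cd163 well above background on every unstimulated array and on no LPS array. Of 4 tested stromal cell markers, Dcn, Lum and Pdgfrb rose in both genotypes. The summed linear signal of the 5 stromal markers, in units of the 75th percentile, was 2.19 to 12.3 on KO LPS arrays, 2.25 to 5.99 on WT LPS arrays, 0.134 to 0.139 on KO unstimulated arrays and 0.143 to 0.195 on WT unstimulated arrays. The defining T cell markers Cd3d and Cd3g and the B cell markers Cd79a and Ms4a1 were not well above background on any array. Of 4 monocyte markers, Ccr2, F13a1 and Fn1 fell after LPS in both genotypes, and the summed signal of the 4 was 4.06 to 10.4 on KO LPS arrays, 7.27 to 9.31 on WT LPS arrays, 49.3 to 61.8 on KO unstimulated arrays and 31.5 to 70.6 on WT unstimulated arrays. Of 4 tested basophil and mast cell markers, 3 fell in both genotypes, and of 2 tested eosinophil markers 1 fell in KO and both in WT. Their summed signals on the LPS arrays were at most 0.122 for basophils and mast cells and 0.198 for eosinophils, against at least 0.383 and 1.88 on the unstimulated arrays. Of 6 tested neutrophil markers, 1 rose and 1 fell in KO and 1 rose in WT. These marker levels moved with LPS in the same arrays as the genes below, and their part in the LPS differences was not tested. In bulk RNA, a change in the share of a cell type and a change in RNA per cell cannot be told apart.

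The LPS comparison asks how activated DC differed from resting DC in this pathway. In KO DC, 4 of the 10 genes rose and none fell, against 10.3% of all 15400 genes called higher, 10.5% called lower and 20.8% called in either direction at an adjusted p under 0.05 (limma, Benjamini-Hochberg over all genes). In WT DC, 3 rose and none fell, against 9.48% called higher, 10.7% lower and 20.2% in either direction. Nos2, Gch1 and Slc7a2 rose in both genotypes, and Arg2 was called only in KO. The median log2 difference of the 10 genes was 1.60 in KO and 1.45 in WT, against 0.05 and 0.00 for all genes tested. LPS and unstimulated arrays did not overlap for 6 of the 10 genes in KO and 5 in WT, which is no more than the 63.8% of all genes in KO and the 62.1% in WT for which this held.

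**Figure D1:**
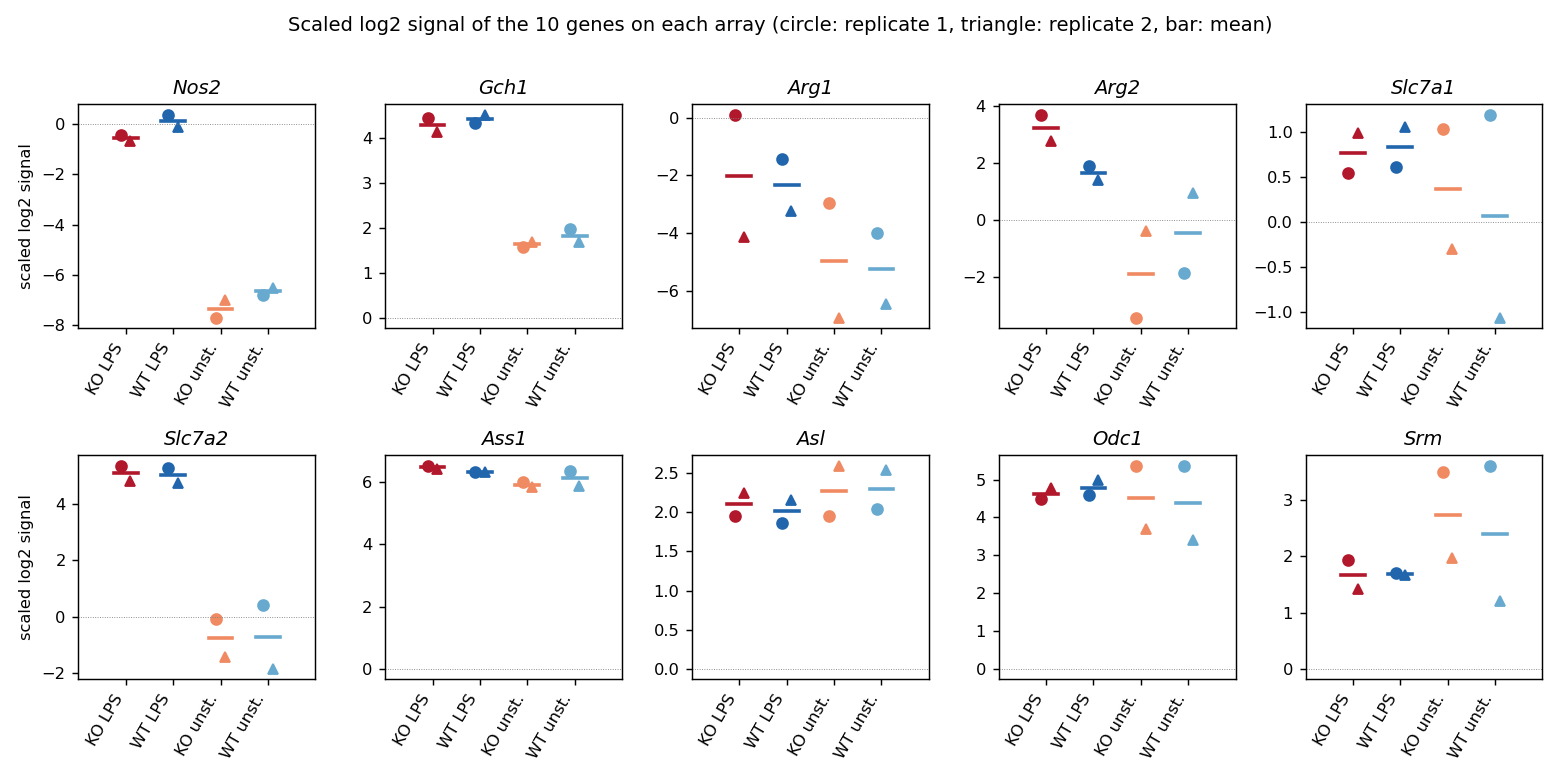
Scaled log2 signal of each gene on each array, in the order KO LPS, WT LPS, KO unstimulated and WT unstimulated, with a circle for replicate 1, a triangle for replicate 2 and a bar at the mean, each panel with its own axis. Nos2, Gch1 and Slc7a2 lie higher on all 4 LPS arrays than on all 4 unstimulated arrays. The circles lie above the triangles in every group for Arg1, Slc7a2, Ass1 and Srm, with gaps of 1.79 log2 units or more in every group only for Arg1.

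Nos2, the enzyme that makes nitric oxide in activated phagocytes, was well above background only on LPS arrays. It gave scaled log2 signals of -0.43 and -0.67 on the KO LPS arrays, against -7.71 and -7.01 on the KO unstimulated arrays. In WT it was 0.37 and -0.12 on the LPS arrays, against -6.80 and -6.51 on the unstimulated arrays. All 4 LPS arrays were far above all 4 unstimulated arrays, on which the probe was not well above background, so the difference has only a lower bound. That bound sets the mean of the LPS arrays against, on each unstimulated array, the higher of its lowest signal well above background and the probe's own signal. Nos2 was at least 28.4-fold higher after LPS in KO (adjusted p = 0.000134, limma) and at least 25.1-fold higher in WT (adjusted p = 0.000209). The array carries this probe in 10 spots, and on the LPS arrays the SD between those spots was 0.0607 to 0.122 log2 units, less than the difference of 0.23 between the KO LPS arrays and of 0.49 between the WT LPS arrays. The arrays lay on 2 slides. Slide 2 held the KO LPS group whole, and only the array numbered 1 from each of KO unstimulated and WT LPS. Slide 1 held the WT unstimulated group whole, and the arrays numbered 2 from those split groups. The slides thus partly follow both genotype and LPS. A value within a slide, here and below, sets 2 arrays of a group against 1 of the other. It is the same difference as when the array on the other slide is left out, and no separate check. With the slide as a block, the fitted log2 difference, which depends on signals near the background, was 6.86 in KO and 6.83 in WT, and within a slide it was 7.16 in KO and 6.54 in WT.

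Gch1, GTP cyclohydrolase, the first enzyme of tetrahydrobiopterin synthesis, rose by a similar amount in both genotypes. The scaled log2 signals were 4.44 and 4.13 on the KO LPS arrays, against 1.58 and 1.70 on the KO unstimulated arrays. On the WT LPS arrays it was 4.34 and 4.52, against 1.97 and 1.68 on the WT unstimulated arrays. The LPS arrays lay above the unstimulated arrays without overlap. The log2 difference was 2.65 ± 0.26 in KO, 6.26-fold (adjusted p = 0.00109, limma), and 2.61 ± 0.26 in WT, 6.09-fold (adjusted p = 0.00138). A second, dimmer Gch1 probe also rose, by 1.88 ± 0.33 in KO and 1.72 ± 0.33 in WT. With the slide as a block the first probe differed by 2.72 in KO and 2.68 in WT, and within a slide by 2.71 and 2.70. With another background correction, normexp, the KO difference of 1.76 was not called (adjusted p = 0.114).

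Among the genes that rose, the promoter table used here holds Gch1, and its promoter is shown for that reason. It is the stretch of 250 bases before the start site, chr14:47189414-47189663 on the minus strand of GRCm38.p6, from RefSeq. Capitals mark the motif matches.
Gch1 promoter: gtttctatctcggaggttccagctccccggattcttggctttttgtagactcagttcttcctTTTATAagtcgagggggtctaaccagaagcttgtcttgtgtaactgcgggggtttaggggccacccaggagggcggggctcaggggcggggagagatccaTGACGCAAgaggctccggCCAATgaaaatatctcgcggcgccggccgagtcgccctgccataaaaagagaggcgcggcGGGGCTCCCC
Searched on both strands, it held the cAMP-response-element-like motif TGACGNNA at -88 to -81, which 5.66% of 32851 promoter stretches of this length hold. It held CCAAT at -70 to -66, which 33.8% hold, and TATAAA at -188 to -183 on the opposite strand, which 12.4% hold. The kappaB consensus matched at -10 to -1 on both strands, and 7.25% of promoter stretches hold it. The interferon-response-type motif GAAANNGAA, held by 7.13%, and the STAT motif TTCNNNGAA, held by 7.02%, had no match in these letters. A match is a description of the sequence and not a measured binding site. Promoters were at hand for 4 of the 10 genes.

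Slc7a2, a cationic amino acid transporter that macrophages use to take up arginine for nitric oxide synthesis, rose strongly in both genotypes. Its scaled log2 signal was 5.35 and 4.79 on the KO LPS arrays, against -0.09 and -1.45 on the KO unstimulated arrays. In WT it was 5.27 and 4.73 on the LPS arrays, against 0.40 and -1.86 on the unstimulated arrays. The KO and WT LPS arrays with the same number differed by less than the arrays of 1 group did. The log2 difference was 5.84 ± 0.77 in KO, 57.1-fold (adjusted p = 0.00325, limma), and 5.73 ± 0.77 in WT, 53.1-fold (adjusted p = 0.00393). The size rests on the unstimulated arrays: without KO unstimulated replicate 1 it was 6.52 in KO and without replicate 2 it was 5.16, and without WT unstimulated replicate 1 it was 6.86 in WT and without replicate 2 it was 4.60, each still called. With the slide as a block it was 5.36 in KO and 5.25 in WT, and within a slide 5.16 and 5.46.

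Slc7a1, the widely expressed cationic amino acid transporter, was not called. Scaled log2 signals of Slc7a1 were 0.55 and 0.99 on the KO LPS arrays, against 1.04 and -0.31 on the KO unstimulated arrays. The values were 0.61 and 1.06 on the WT LPS arrays, against 1.20 and -1.07 on the WT unstimulated arrays, so the groups overlapped. The log2 difference was 0.41 ± 0.77 in KO and 0.78 ± 0.77 in WT, and a second probe of the gene was not called either, at 0.31 ± 1.16 and -0.24 ± 1.16.

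Arg2, the mitochondrial arginase and the published miR-155 target, rose in KO DC. Its scaled log2 signal was 3.71 and 2.78 on the KO LPS arrays, against -3.46 and -0.39 on the KO unstimulated arrays. In WT it was 1.89 and 1.41 on the LPS arrays, against -1.89 and 0.95 on the unstimulated arrays. Both KO LPS arrays were above both WT LPS arrays, and in each genotype the LPS arrays were above the unstimulated arrays, but the unstimulated arrays of 1 genotype differed by 3.07 log2 units in KO and 2.84 in WT, with replicate 1 the lower in both. The log2 difference was 5.17 ± 1.18 in KO, 36.0-fold (adjusted p = 0.024, limma). In WT it was 2.12 ± 1.18, with a 95% interval of -0.68 to 4.93 (adjusted p = 0.254). The difference between these responses, 3.05 ± 1.67 with an interval of -0.92 to 7.02, was not called (adjusted p = 1.0, limma), so Arg2 is not shown to respond more in KO. The KO call was lost without KO LPS replicate 1 (4.71, adjusted p = 0.101), without KO LPS replicate 2 (5.63, adjusted p = 0.062) and without KO unstimulated replicate 1 (3.64, adjusted p = 0.0921), and the difference was 6.70 without KO unstimulated replicate 2 (adjusted p = 0.0251). With the slide as a block the difference was 5.82 in KO (adjusted p = 0.0361) and 2.77 in WT (adjusted p = 0.217), and within a slide it was 6.70 in KO and 1.88 in WT. Between arrays of the same number it was 7.16 and 3.18 in KO and 3.78 and 0.46 in WT.

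**Figure D2:**
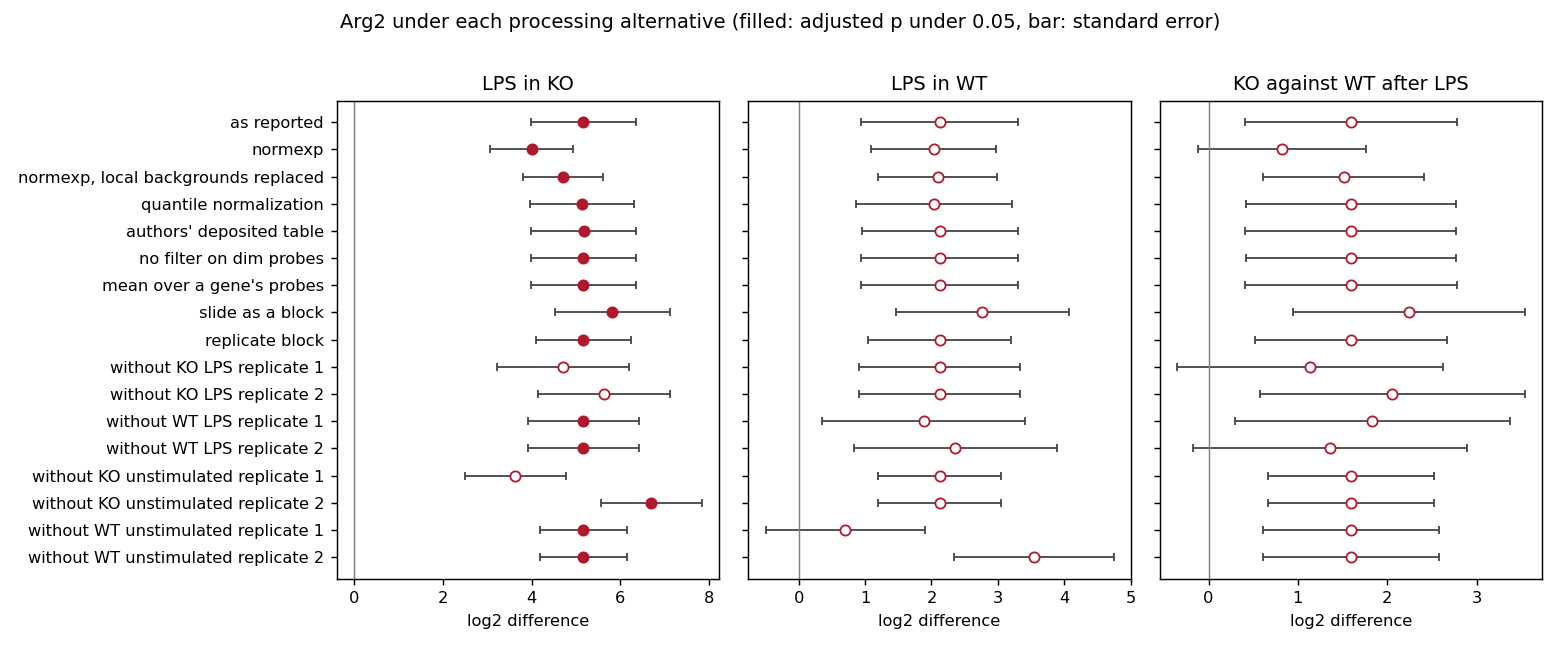
Log2 difference of Arg2 for LPS in KO, LPS in WT and KO against WT after LPS (panels from left to right, each with its own axis), under each way of processing the arrays, with SE bars and filled points at an adjusted p under 0.05. The KO response ranges from 3.64 to 6.70 and is called in all but 3 settings, and no point is filled in the other panels.

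Arg1, the cytosolic arginase of alternatively activated macrophages, differed between the 2 arrays of every group by 1.79 log2 units or more, and its LPS difference was called or not depending on how these arrays were fitted. Its scaled log2 signal was 0.11 and -4.13 on the KO LPS arrays, against -2.97 and -6.95 on the KO unstimulated arrays. The WT values were -1.44 and -3.23 on the LPS arrays, against -4.00 and -6.48 on the unstimulated arrays. Replicate 1 was higher than replicate 2 in all 4 groups by 4.24 log2 units in KO LPS, 1.79 in WT LPS, 3.98 in KO unstimulated and 2.48 in WT unstimulated, and the replicate 2 arrays of both unstimulated groups were not well above background. The KO LPS and KO unstimulated arrays overlapped, and the WT ones did not. A gap of at least 1 log2 unit in this direction in all 4 groups was present in 0.528% of 15353 genes. The log2 difference was 2.95 ± 1.79 in KO (adjusted p = 0.296, limma) and 2.90 ± 1.79 in WT (adjusted p = 0.299), so it was not called in either genotype in this fit, which does not use the replicate number. Between arrays of the same number it was 3.08 and 2.82 in KO and 2.56 and 3.24 in WT, and a fit with the number as a block called Arg1 in both genotypes. Under normexp the difference was called in KO, at 2.85 (adjusted p = 0.0168). With the slide as a block it was 1.51 in KO and 1.46 in WT, and within a slide 0.96 and 2.0. The slides were not balanced over the replicate numbers. Within a slide, both KO LPS arrays were set against KO unstimulated replicate 1 alone, and WT LPS replicate 2 against both WT unstimulated arrays. These slide values therefore also take in the gap between replicate numbers. The summed stromal marker signal was also higher on replicate 1 than on replicate 2 after LPS, at 12.3 and 2.19 in KO and 5.99 and 2.25 in WT, but not in the unstimulated state, at 0.134 and 0.139 in KO and 0.143 and 0.195 in WT. Dcn made up most of the sum on the replicate 1 LPS arrays, with scaled log2 signals of 3.42 and -0.98 in KO and 2.25 and -0.68 in WT. Col1a2 in both genotypes and Lum in KO had the same order after LPS. Pdgfrb in both genotypes and Lum in WT had the opposite order. The summed macrophage marker signal was 367 and 178 on KO LPS replicates 1 and 2 and 301 and 277 on those of WT, and 212 and 269 on KO unstimulated replicates 1 and 2 and 211 and 292 on those of WT. The part of either sum in the Arg1 levels was not tested.

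Ass1, argininosuccinate synthase, and Asl, argininosuccinate lyase, which together remake arginine from citrulline, stayed within narrow ranges. The scaled log2 signal of Ass1 was 6.52 and 6.40 on the KO LPS arrays, against 5.99 and 5.82 on the KO unstimulated arrays. It was 6.33 and 6.30 on the WT LPS arrays, against 6.36 and 5.86 on the WT unstimulated arrays. The KO groups did not overlap and the WT groups did. The difference of 0.55 ± 0.27 in KO was not called (adjusted p = 0.201, limma), nor was that of 0.20 ± 0.27 in WT, with intervals of -0.09 to 1.19 and -0.44 to 0.84. A second Ass1 probe, which shares 20 bases with the first, differed by 0.60 ± 0.28 in KO and 0.25 ± 0.28 in WT and was not called. The scaled log2 signal of Asl was between 1.86 and 2.59 on the 8 arrays, and its difference was -0.17 ± 0.33 in KO and -0.28 ± 0.33 in WT.

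Odc1, ornithine decarboxylase, and Srm, spermidine synthase, the polyamine enzymes, were not called in either genotype. The scaled log2 signal of Odc1 was 4.49 and 4.77 on the KO LPS arrays, against 5.36 and 3.70 on the KO unstimulated arrays. It was 4.60 and 4.98 on the WT LPS arrays, against 5.37 and 3.41 on the WT unstimulated arrays. In both genotypes the LPS arrays lay between the unstimulated arrays. The Odc1 difference was 0.10 ± 0.74 in KO and 0.40 ± 0.74 in WT, and that of a second probe was -0.01 ± 0.72 and 0.42 ± 0.72. The scaled log2 signal of Srm was 1.93 and 1.42 on the KO LPS arrays, against 3.50 and 1.97 on the KO unstimulated arrays. It was 1.70 and 1.67 on the WT LPS arrays, against 3.61 and 1.20 on the WT unstimulated arrays. The Srm difference was -1.06 ± 0.81 in KO and -0.72 ± 0.81 in WT (adjusted p = 0.41 and 0.577, limma).

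**Figure D3:**
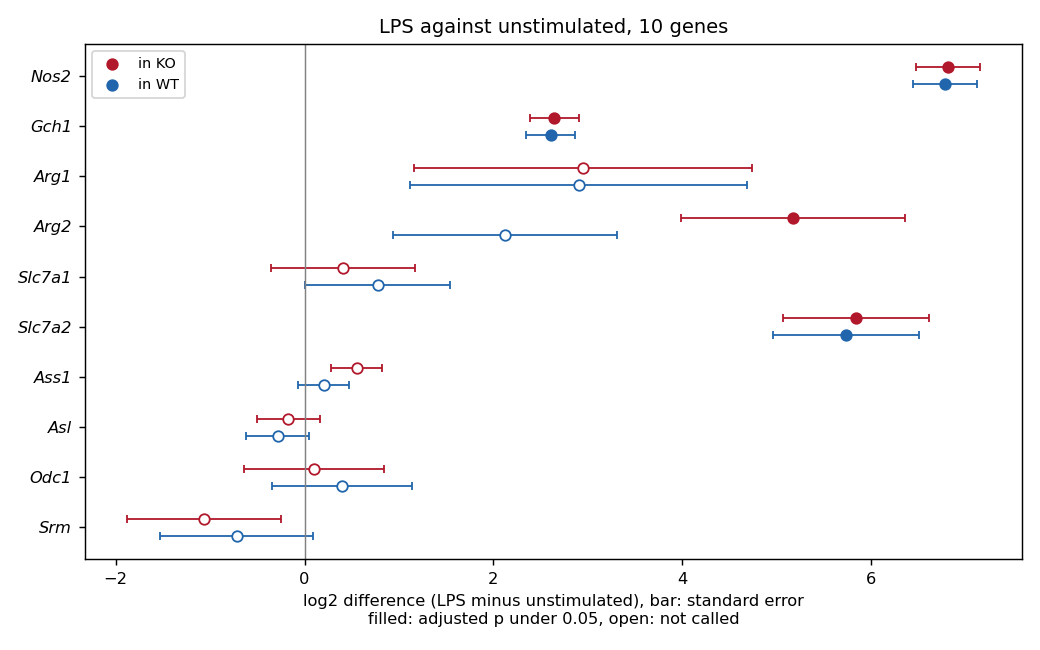
Log2 difference, LPS minus unstimulated, of the 10 genes in KO and in WT, with SE bars and filled points at an adjusted p under 0.05. Slc7a2 lies at 5.84 in KO and 5.73 in WT and Gch1 at 2.65 and 2.61. The bars of Arg1 are the widest at 1.79, and the points of Nos2 rest on unstimulated signals not well above background.

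The numbering of the arrays was visible in several of these genes in the unstimulated state. Arg1, Slc7a1, Slc7a2, Odc1 and Srm were each higher on replicate 1 than on replicate 2 by at least 1 log2 unit in both the KO and the WT unstimulated group, which is 5 of the 10 genes, against 2.76% of 15353 genes. The gaps in KO and WT were 1.34 and 2.27 for Slc7a1, 1.36 and 2.26 for Slc7a2, 1.66 and 1.96 for Odc1, and 1.52 and 2.41 for Srm. Arg2 went the other way by 3.07 and 2.84. After LPS the gaps of Slc7a1, Slc7a2, Odc1 and Srm were between -0.45 and 0.56, smaller than any of the unstimulated gaps just given. The labels do not say what the replicate numbers stand for.

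The genotype comparison asks whether loss of miR-155 changed the pathway in either state. After LPS, none of the 10 genes was called between KO and WT, with 0.026% of 15400 genes called and 1.21% at an unadjusted p under 0.05. In the unstimulated state none was called either, with 0.24% of 15401 genes called and 2.56% at an unadjusted p under 0.05. The LPS response of KO minus that of WT was called for none of the 10, with 0.0455% of all genes called and 1.42% at an unadjusted p under 0.05. After LPS, KO and WT arrays did not overlap for 3 of the 10 genes, Nos2, Arg2 and Ass1, against 21.2% of all genes. Without LPS this held for 1 of the 10, Nos2, whose probe was then not well above background in either genotype, against 21.0% of all genes. These counts are near the share of all genes and are no result about the members. With 2 arrays a group, these comparisons cannot show that the genotypes were alike. The intervals give the sizes that remain possible in this fit, which does not use the replicate number.

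**Figure D4:**
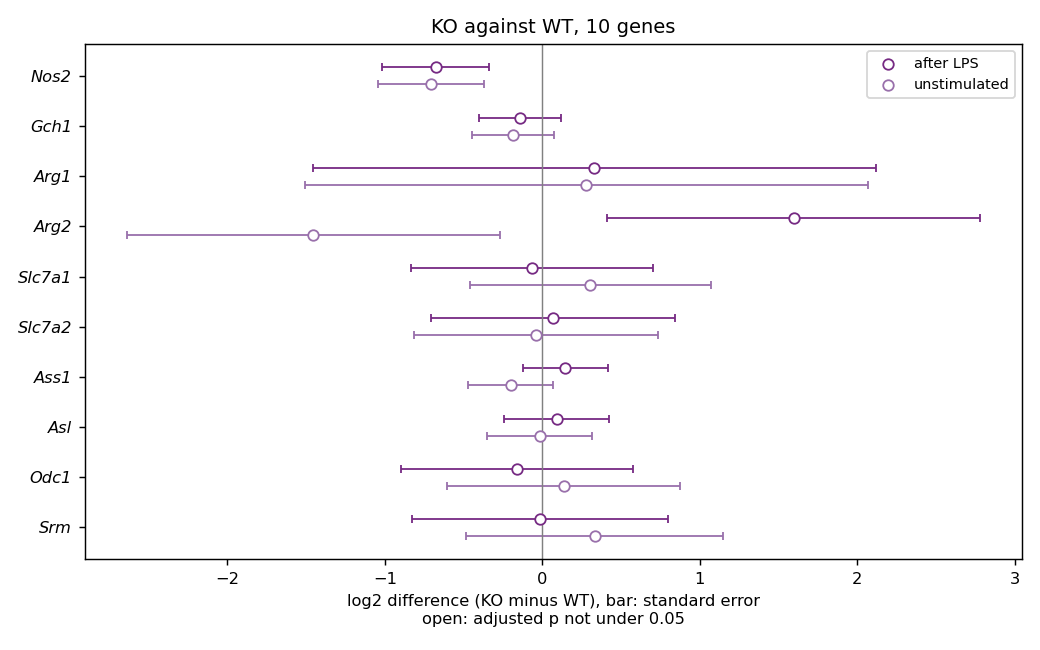
Log2 difference, KO minus WT, of the 10 genes after LPS and in the unstimulated state, with SE bars; all points are open because none had an adjusted p under 0.05. Arg2 lies at 1.60 after LPS and -1.45 unstimulated, and Nos2 at -0.68 after LPS, while its unstimulated point rests on signals not well above background in either genotype.

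The Arg2 difference, KO minus WT, was 1.60 ± 1.18 log2 units after LPS, 3.02-fold, with an interval of -1.21 to 4.40 (adjusted p = 1.0, limma). In the unstimulated state it was -1.45 ± 1.18, with an interval of -4.26 to 1.35, and the KO and WT arrays overlapped. With the slide as a block these differences were 2.24 after LPS and -0.81 unstimulated, and within a slide they were 1.36 and 0.08. The unstimulated difference therefore depended on which arrays were set against each other. Within a slide, KO unstimulated replicate 2 was set against both WT unstimulated arrays, so that value takes in the gap between replicate numbers. Between arrays of the same number, unstimulated KO was below WT, at -3.46 against -1.89 and -0.39 against 0.95. After LPS, KO was above WT, at 3.71 against 1.89 and 2.78 against 1.41. Neither difference was called. Nos2 was -0.68 ± 0.34 in KO against WT after LPS, with an interval of -1.48 to 0.12 (adjusted p = 1.0, limma). Both KO LPS arrays were below both WT LPS arrays. In the unstimulated state the Nos2 probe was not well above background in either genotype, so no fold is given.

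The intervals were narrowest for Gch1, with a KO-minus-WT difference of -0.14 ± 0.26 after LPS (interval -0.76 to 0.47), for Ass1, at 0.15 ± 0.27 (-0.49 to 0.79), and for Asl, at 0.09 ± 0.33 (-0.70 to 0.88). For Slc7a2 the difference was 0.07 ± 0.77 after LPS (-1.77 to 1.90) and for Arg1 0.33 ± 1.79 (-3.91 to 4.57), wide enough to hold large changes in either direction. The Arg1 interval is from the fit without the replicate number, so it takes in the gap between replicate numbers present in every group. The fit with the number as a block did not call Arg1 between genotypes either. Slc7a1, Odc1 and Srm were at -0.07 ± 0.77, -0.16 ± 0.74 and -0.01 ± 0.81.

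The other genes of the pathway were read from a list of 68 names, of which 67 were on the array and 54 were tested. After LPS, 7 rose and 5 fell in KO, and 7 rose and 5 fell in WT, beside the 20.8% and 20.2% of all genes called. These counts are near the share of all genes and are no result about the list. The groups within it, given below, are small. The median log2 difference of the 54 was -0.18 in KO and -0.27 in WT. In the genotype comparisons none of the 54 was called.

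The cationic and related amino acid transporters had the most calls, 5 higher and 2 lower of 11 tested in KO, and 5 higher and 1 lower in WT. Over all genes, 10.3% were called higher and 10.5% lower in KO, and 9.48% and 10.7% in WT. Slc7a11, the light chain of the cystine and glutamate exchanger, rose by 3.10 ± 0.45 in KO and 2.79 ± 0.45 in WT, and its heavy chain partner Slc3a2 by 1.61 ± 0.29 and 1.38 ± 0.29. Slc7a8, a light chain for neutral amino acids, rose by 2.0 ± 0.40 in KO and 2.39 ± 0.40 in WT, and Slc25a29, a mitochondrial carrier of basic amino acids, by 2.91 ± 0.30 and 2.64 ± 0.30. Slc7a3, a further cationic amino acid transporter, was not well above background without LPS and was at least 7.63-fold higher after LPS in KO and at least 4.10-fold higher in WT (adjusted p = 0.0155 and 0.0152, limma). Slc7a4, a relative of these transporters, was not well above background after LPS and was at least 10.6-fold lower than without it in KO and at least 9.35-fold lower in WT. Slc25a15, the mitochondrial ornithine carrier, was also not well above background after LPS. It was at least 2.03-fold lower than without LPS in KO (adjusted p = 0.0284) and not called in WT (adjusted p = 0.0672), and the difference between the responses was not called (adjusted p = 1.0). Under normexp its KO difference was 1.32, of the opposite sign.

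The scaled log2 signal of Slc7a11 was 4.38 and 4.71 on the KO LPS arrays, against 2.13 and 0.76 on the KO unstimulated arrays. That of Slc25a29 was -1.48 and -1.02 on the KO LPS arrays, against -3.91 and -4.42 on the KO unstimulated arrays. In WT, Slc7a11 was at 4.23 and 4.25 on the LPS arrays, against 1.55 and 1.35 on the unstimulated arrays. For both genes the LPS arrays lay above the unstimulated arrays of the same genotype.

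Of 7 tetrahydrobiopterin genes tested beside Gch1, 1 rose and 1 fell in each genotype, and these act in recycling the cofactor rather than in making it. Qdpr, dihydropteridine reductase, fell by 1.82 ± 0.27 in KO and by 1.84 ± 0.27 in WT. The Qdpr level was a scaled log2 signal of 2.86 and 2.90 on the KO LPS arrays, against 4.82 and 4.57 on the KO unstimulated arrays. Pcbd1, carbinolamine dehydratase, was not well above background without LPS. It was at least 2.28-fold higher after LPS in KO and at least 1.07-fold higher in WT (adjusted p = 0.00959 and 0.016, limma). None of the 6 tested regulators and partners of the nitric oxide synthases was called, and none of the 6 tested genes of ornithine and proline conversion.

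Of 17 genes tested from the polyamine list, none rose, where 10.3% of all genes were called higher in KO and 9.48% in WT. Such a count in a group of this size is no result about the polyamine genes. The list also leaves out Adc, given below, which rose in both genotypes. Paox, a polyamine oxidase, fell by 2.20 ± 0.40 in KO and by 2.43 ± 0.40 in WT. Sat2, a relative of the spermidine acetyltransferase, fell by 1.59 ± 0.37 in WT (adjusted p = 0.0246, limma) and was at -1.16 ± 0.37 in KO (adjusted p = 0.0673). The difference between these Sat2 responses was not called (adjusted p = 1.0, limma). Of 7 tested genes of the urea cycle and arginine use, 1 rose and 1 fell in each genotype. Gamt, the enzyme of the last step of creatine synthesis, fell by 3.20 ± 0.33 in KO and was at -3.49 ± 0.33 in WT, where it was called as well. The scaled log2 signal of Gamt was -0.80 and -0.40 on the KO LPS arrays, against 2.36 and 2.84 on the KO unstimulated arrays. The gene named Adc on the array, which RefSeq now names Azin2, an antizyme inhibitor that acts on ornithine decarboxylase control, was not well above background without LPS. It was at least 3.61-fold higher after LPS in KO and at least 1.80-fold higher in WT.

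The calls of Slc7a4, Slc7a11, Slc25a29, Qdpr, Gamt and Adc in both genotypes, and of Paox in WT, held when any single array was left out. The Slc7a11 difference in KO was then 3.79 without KO unstimulated replicate 1 and 2.41 without replicate 2. Without KO LPS replicate 1 Slc25a15 was at -2.74 in KO, and Slc7a3 was at 4.08 in KO without KO LPS replicate 2 and at 4.48 in WT without WT LPS replicate 2. In KO, Slc7a3 was not called without KO LPS replicate 1 (2.81) or either KO unstimulated array (3.63 and 3.26), nor Slc7a8 without KO LPS replicate 1 (1.78) or KO unstimulated replicate 2 (1.66). Without KO LPS replicate 2, Slc3a2 (1.36), Slc25a15 (-1.31), Paox (-2.09) and Pcbd1 (1.41) were not called, nor were Slc25a15 without either KO unstimulated array (-2.14 and -1.91) and Paox without KO unstimulated replicate 2 (-1.81). In WT, Sat2 lost its call without any 1 of the 4 WT arrays (-1.33 to -1.86), and Slc7a3 without WT LPS replicate 1 (2.57) or WT unstimulated replicate 1 (3.15). Slc7a8 lost it without WT LPS replicate 1 (2.27), Slc3a2 without WT LPS replicate 2 (1.17) or either WT unstimulated array (1.36 and 1.40), and Pcbd1 without either WT LPS array (1.46 and 1.35) or WT unstimulated replicate 2 (1.18). In the converse direction, Sat2 was called in KO without KO unstimulated replicate 1 (-1.60), and Slc25a15 in WT without either KO LPS array (-1.55).

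**Figure D5:**
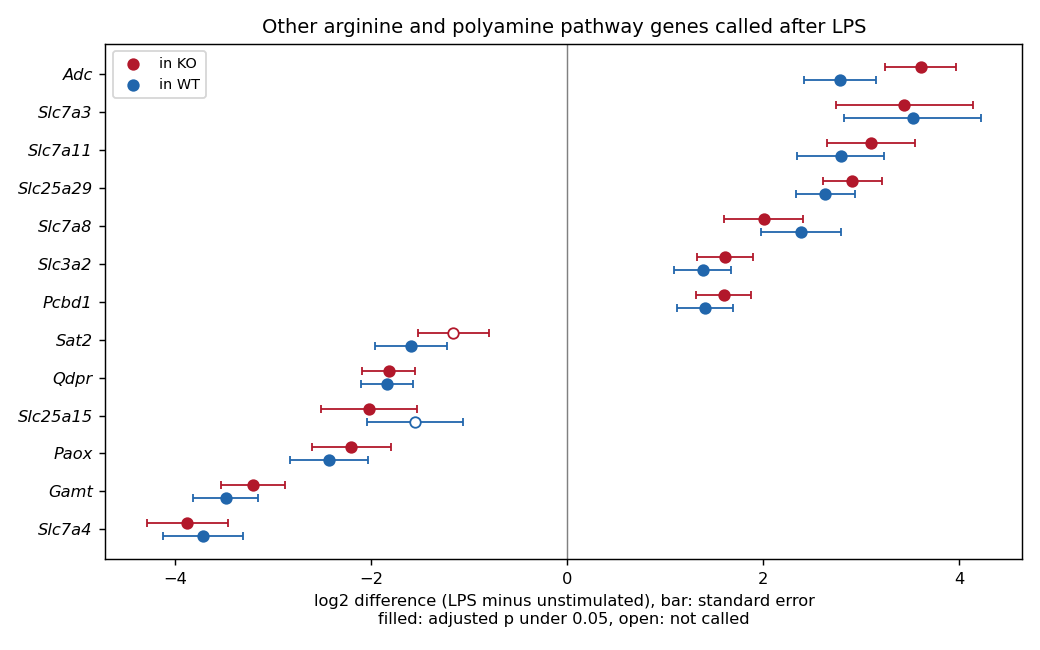
Log2 difference, LPS minus unstimulated, in KO and WT of the 13 other pathway genes called in at least 1 genotype, with SE bars and filled points at an adjusted p under 0.05. The 7 genes that rose and the genes that fell lie on the same side of 0 in KO and WT, and Sat2 and Slc25a15 each have 1 open point.

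The genes whose profiles over the 8 arrays were most like those of Nos2, Arg1 and Arg2 were found by the root mean square distance between centred profiles of scaled log2 signal, over 15353 genes. Nearest to Nos2 were the gene named Pydc4 on the array, which RefSeq now names Ifi213, at 0.26, Isg20, an interferon-induced exonuclease, at 0.35, and Enpp2, autotaxin, at 0.35 log2 units. Since Nos2 was not well above background on the 4 unstimulated arrays, these distances rest partly on signals near the background, and Pydc4 and Enpp2 were not well above it on those arrays either. Nearest to Arg1 were Ccl2, a monocyte-attracting chemokine, at 0.72, Dach1 at 0.81 and Fhod3 at 0.83. Nearest to Arg2 were the transporter-family gene Slc16a9 at 0.79, and the serine proteases Tmprss4 at 0.81 and Htra4 at 0.84. Of the 4 unstimulated arrays, Slc16a9 and Tmprss4 were well above background on 1, and Htra4 and Fhod3 on 2. Their distances thus also rest partly on signals near the background. Ccl2 had the same order between replicate numbers as Arg1, with scaled log2 signals of 8.03 and 4.14 on the KO LPS arrays, against 4.23 and 0.68 on the KO unstimulated arrays. Its WT values were 8.0 and 4.37 on the LPS arrays, against 3.81 and 0.45 on the unstimulated arrays.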

How the data were processed

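RNA from 8 samples was hybridised to 8 one-colour arrays. Scans were read by the authors in Agilent Feature Extraction (version 10.5.1.1, per the file headers). Deposited intensity values are a background-subtracted processed signal, a raw mean signal and a local background per spot, with coordinates on mm9. The deposited flags, an other unit of 0 or 1, mark spots that are well above background, saturated or outlying. A series table deposited by the authors is in log2 units and matched the log2 processed signal minus a constant per array. Outlying spots, 120 to 174 per array, were left out and spots of a probe averaged. The log2 processed signal minus each array's 75th percentile was used, probes were kept where both arrays of some group were well above background, and the brightest kept probe stood for a gene, with other probes given beside it. Group means were fitted with limma 3.58.1 in R 4.3.3 over 8 arrays, with 4 residual and 2.88 prior degrees of freedom, for 5 comparisons. P-values are two-sided and adjusted by Benjamini-Hochberg over all genes tested, and a gene was called under 0.05. The number of arrays limits the precision. The test was tried on simulated data with independent arrays, for KO against WT after LPS. A change of 1 log2 unit was recovered in 0 of 200 genes, one of 2 in 45.5% and one of 4 in 98%. The false calls were 1, 6 and 6. Symbols were matched to RefSeq by accession for 32 of 32 genes checked, and 2 had another symbol there. All members are named, other pathway genes where called in any comparison, and for Nos2, Arg1 and Arg2 the 3 genes of most like profile. The members, gene lists and tests were chosen with earlier results of these data known. Alternatives were normexp (offset 50), the same with flagged local backgrounds replaced by the array's median (added after seeing the data), quantile normalization, the deposited table, no filter, probe means, slide and replicate blocks, and leaving out each array.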

Additional observations from a re-analysis of the deposited data

How the results depend on the processing

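None of the 10 genes was called between genotypes, or for the difference between the LPS responses, under any alternative run. The number of the 10 called after LPS was 4 in KO and 3 in WT under all alternatives except the replicate block, with 5 and 4, and leaving out single arrays, with 3 to 4 in KO and 3 in WT; Nos2, Gch1 and Slc7a2 were called in both genotypes whichever array was left out. Over all genes, planned normexp correction called 929 genes after LPS in KO and 679 in WT, of which 61.8% and 61.1% were higher, against 49.6% of 3201 and 47.0% of 3105 as reported. On KO LPS replicate 2, 23 spots had local backgrounds over 200, up to 132693, and with flagged local backgrounds replaced the counts were 2933 and 2618. Under planned normexp the fitted Nos2 difference was 3.37 in KO and 3.20 in WT, Arg1 was called in KO (2.85, adjusted p = 0.0168, limma), Gch1 was not (1.76), and Slc25a15 turned to 1.32 in KO; the cause of these single changes was not tested. Of the 23 genes named as members or for a pathway call, planned normexp lost the LPS call of 7 in KO, Gch1 included, and of 9 in WT. All 9 in WT were other pathway genes, of which 7 were called higher and 5 lower as reported. With backgrounds replaced, fewer of the other pathway calls were lost. These were Pcbd1 (0.66 in KO, 0.35 in WT), Slc25a15 in KO (-0.22), and Slc7a3 (1.41), Sat2 (-0.82) and Adc (0.75) in WT. For KO against WT unstimulated, 37 genes as reported became 0 with normexp, 2 with backgrounds replaced, 56 without the filter and 5 with the slide as a block. After LPS, 4 became 0, 2, 2 and 0, and 2 with the replicate block. For the difference between responses, 7 became 0 under each of these 5 settings and 14 with quantile normalization. Leaving out single arrays gave 1423 to 3107 genes for LPS in KO, 1441 to 2865 in WT, 0 to 26 between genotypes unstimulated, 0 after LPS and 0 to 10 for the difference between responses; the lone array is then assumed to vary like the other groups. Without the filter the median of all genes moved to 0.12 after LPS in KO and -0.36 in WT, and with normexp to 0.15 in KO.

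Replicate numbers were checked as a pairing. Deviations of same-numbered arrays from their group means correlated at 0.684 between KO LPS and WT LPS, 0.484 between KO and WT unstimulated, 0.338 between WT LPS and KO unstimulated, 0.214 between KO LPS and KO unstimulated, 0.121 between WT LPS and WT unstimulated and 0.004 between KO LPS and WT unstimulated, so 5 of 6 were over 0.1. The labels do not say what a number shares and there are only 2 numbers, so the pairing is not settled and the fit without it was kept. With the replicate block, 4188 genes were called after LPS in KO and 4153 in WT, and Arg1 was called at 2.95 ± 0.63 in KO (adjusted p = 0.0187, limma) and 2.90 ± 0.63 in WT (adjusted p = 0.0201).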
